A study of Mus musculus with 108 samples.

Results

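Gene expression in the heart of 129S2 mice, an inbred strain, was compared with that in the hearts of 5 other inbred strains. The comparison rests on 3 129S2 heart arrays and on 15 heart arrays of A/J, AKR/J, C3HeB/FeJ, C57BL/6J and DBA2/J, with 3 arrays for each strain, out of 108 arrays in the series. The series profiled 6 organs (heart, lung, liver, kidney, testis and brain) of males of these 6 strains at 11 to 14 weeks of age, under a title on gene copy number and expression. The 129S2 mice came from Charles River in France and the other strains from The Jackson Laboratory, so that supplier and strain cannot be told apart. Array titles name single animals, while the labelling protocol speaks of pools, and no genotype beyond the strain was given. Values are log2 signals after RMA, a summary of the probes of each set after background correction and quantile normalization, so that differences are log2 ratios. Each gene was read from 1 probe set, the single-gene set with the highest mean over all arrays, which gave 18194 genes. The difference reported for a gene is the 129S2 mean minus the mean of the 5 strain means. A gene is called apart when that difference passed limma's moderated test at a Benjamini-Hochberg adjusted p under 0.05 over all genes and the 3 129S2 arrays lay wholly above or wholly below the other 15. By this rule 314 of the 18194 genes were apart.

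Inbred mice of 1 strain are nearly identical genetically, so replicate animals of a strain share their alleles, and strains differ where their alleles differ. The heart is built mainly from cardiomyocytes, which draw most of their energy from fatty acids and carry the sodium, potassium and calcium channels that drive each beat. Small heat-shock proteins and their co-chaperones hold the contractile filaments in shape, and phospholipid enzymes remodel the membranes in which the channels sit.

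The arrays carried the markers of the labelled tissue. The 12 heart markers averaged 14.02, 13.76 and 13.29 on the 129S2 arrays and between 12.94 and 14.00 on the other 15, and none of them passed the test. Array medians were 5.14, 5.16 and 5.13 in 129S2, against 5.08 to 5.14 elsewhere. Array 2 of 129S2 stood apart from its replicates: its correlation with them across probe sets was 0.986 and 0.988, while arrays 1 and 3 correlated at 0.992 and replicates of the other strains at 0.993 or more. An estimate of array quality weights gave it 0.198, against 0.985 and 0.766 for 129S2 arrays 1 and 3 and between 0.821 and 1.60 for the others. Its control probe sets for 18S ribosomal RNA gave a 3′ minus 5′ difference of 0.84, against -0.70 to 0.24 on the arrays of the other strains. Atrial markers (Myl7, Myl4, Sln, Nppa, Stard10 and Bmp10) averaged 12.55, 12.16 and 7.23 in 129S2 and spanned 6.28 to 12.42 in the other strains, so that these markers varied between samples of the same strain. List counts that changed without 129S2 array 2 are given with and without it. In whole tissue, fewer cells of a type and less RNA per cell cannot be told apart.

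**Figure D1:**
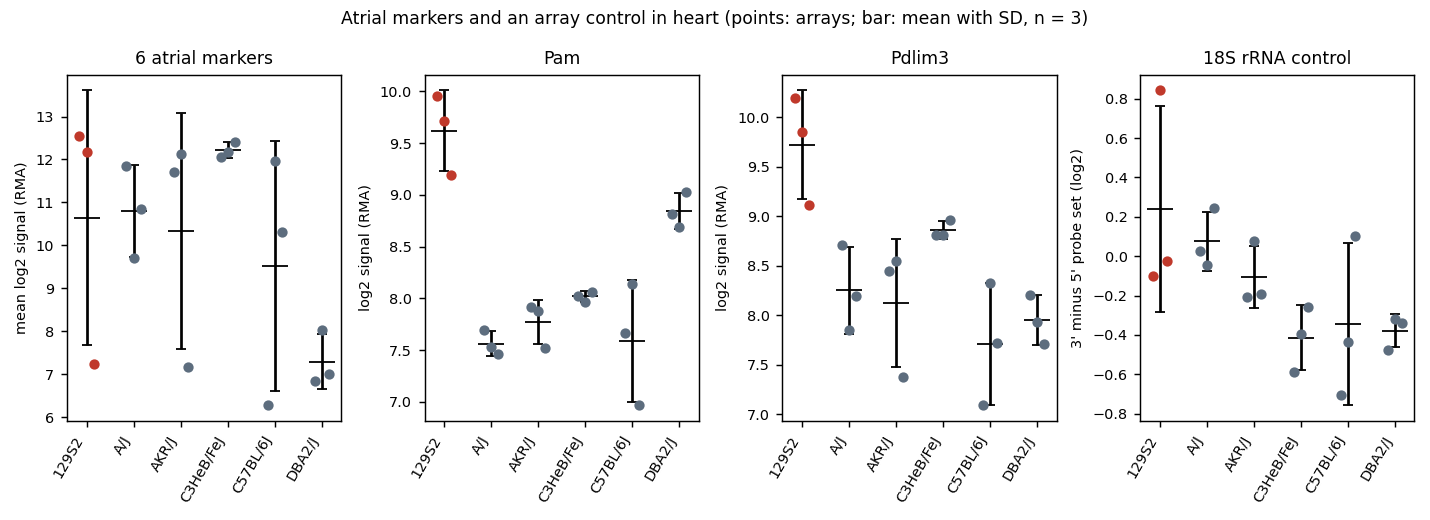
Mean log2 signal of 6 atrial markers, log2 signal of Pam and Pdlim3, and the 3′ minus 5′ difference of the 18S ribosomal RNA control on each heart array, with the strain on the horizontal axis and 129S2 in red; bars give the mean with SD (n = 3). One 129S2 array has atrial markers at 7.23 while the other two lie above 12, and 129S2 array 2 has the highest 18S difference at 0.84.

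Across all genes the difference passed for 1544, which is 8.49% of those tested; 566 (3.11%) were higher in 129S2 heart and 978 (5.38%) lower. The 129S2 arrays cleared all others for 314 genes, 1.73% of those tested, of which 127 were higher and 187 lower. The median size of the difference among these 314 was 0.52 log2 units, and 45 of them differed by at least 1 unit, 13 higher and 32 lower. Without 129S2 array 2, 919 genes passed (5.05%), 373 as higher (2.05%) and 546 as lower (3%), and 245 of the 314 apart genes still passed (88 higher, 157 lower). Leaving out a 129S2 array also loosens the demand that the groups not overlap: without array 1 the rule gave 269 genes higher and 304 lower, and without array 3 it gave 337 and 597. The same contrast for each other strain, with 129S2 among its references, passed for between 706 genes (A/J) and 2454 genes (DBA2/J). Of the 314 apart genes, 233 had a mean heart signal of at least 6 on the log2 scale, 67 of them higher and 166 lower.

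The 15 apart genes with the largest difference in each direction are described next, and are called the 30 genes with the largest differences below. They are not the 30 widest contrasts of this heart. Limd1, outside them, differed by -1.39, and Arc, among them, by 0.94. Of the 87 genes that passed with a difference of at least 1 unit, 45 were apart. All 30 passed without 129S2 array 2, and for 29 of them 129S2 differed from each of the 5 strains taken singly. The higher genes ranged from 0.94 to 5.66 and the lower ones from -1.49 to -5.01 log2 units.

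**Figure D2:**
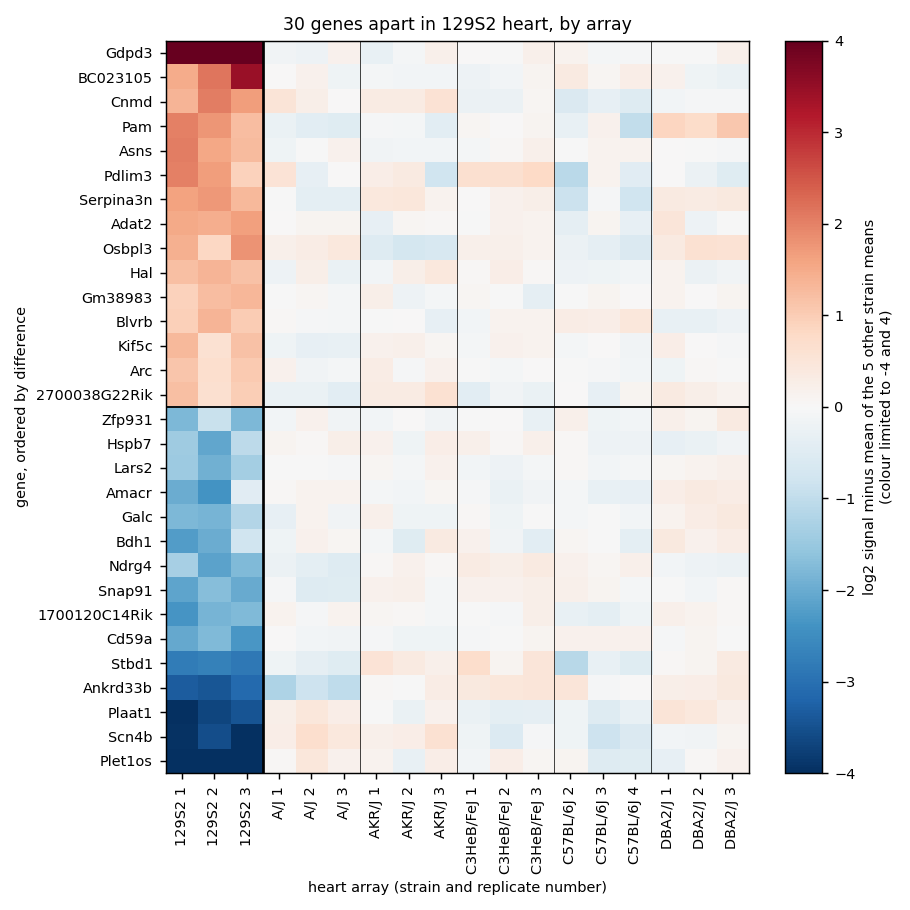
Log2 signal of the 30 genes with the largest differences on each of the 18 heart arrays, minus the mean of the 5 other strain means, with 129S2 in the 3 left columns; colour is limited to -4 and 4. The 3 left columns are red for the 15 higher genes and blue for the 15 lower ones, and array 3 of 129S2 is the palest of the 3 for Bdh1 and Amacr.

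Gdpd3, which encodes a lysophospholipase D that cleaves lysophospholipids to lysophosphatidic acid, had the largest difference of all 18194 genes. It read 10.85, 10.70 and 10.84 on the 129S2 arrays and lay between 4.83 and 5.33 with a median of 5.12 on the other 15. All 129S2 arrays stood far above, and the other strains sat at the level of the array median, a low signal, so that no fold is given. The difference was 5.66 ± 0.0945 log2 units (SE; limma adjusted p = 2.77e-17). Serpina3n, a secreted serine protease inhibitor of the acute phase, read 8.37, 8.51 and 8.05 in 129S2 and between 5.92 and 7.23 with a median of 6.91 elsewhere, a difference of 1.54 ± 0.135 (limma adjusted p = 6.58e-07). Groups did not overlap; DBA2/J came nearest.

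Several of the higher genes encode enzymes of amino acid, haem and RNA metabolism. Asns, asparagine synthetase, read 8.01, 7.50 and 7.21 in 129S2, while the other arrays lay between 5.78 and 6.15 with a median of 5.94. The 129S2 arrays varied by almost a unit among themselves, yet the lowest of them was above every other array, and the difference was 1.62 ± 0.111 (limma adjusted p = 3.45e-08). Another Asns probe set passed the same way. Hal, histidine ammonia-lyase, the first enzyme of histidine breakdown, read 6.00, 6.15 and 5.97 in 129S2 and between 4.55 and 5.23 with a median of 4.69 elsewhere (difference 1.24 ± 0.11, limma adjusted p = 8.16e-07). Blvrb, biliverdin reductase B, read 8.92, 9.32 and 8.95 in 129S2 and between 7.63 and 8.39 with a median of 7.94 elsewhere (difference 1.11 ± 0.0868, limma adjusted p = 1.63e-07). Adat2, the catalytic subunit of an adenosine deaminase that edits the wobble position of transfer RNAs, read 6.83, 6.77 and 6.97 in 129S2 and between 4.95 and 5.80 with a median of 5.37 elsewhere. Its 129S2 arrays lay close together and almost a unit above the highest other array, with a difference of 1.54 ± 0.122 (limma adjusted p = 1.84e-07).

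Asns is a textbook target of the amino acid response, in which the factor ATF4 binds an element in its promoter when amino acids run short. The stretch of that promoter just upstream of the gene start is shown because Asns had the larger difference of the amino acid enzyme genes named here. It is taken from RefSeq on GRCm38.p6, at chr6:7693210-7693329 (- strand), written 5′ to 3′ in the direction of the gene, with the letters TGATGAAAC in capitals.
Asns: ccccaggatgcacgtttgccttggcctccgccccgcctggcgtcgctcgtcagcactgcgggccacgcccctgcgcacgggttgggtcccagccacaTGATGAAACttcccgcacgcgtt
These letters, searched on both strands of the 250 bases before each start, occurred in 0.213% of 32851 promoters. The match is a description of the reference strain's sequence; the 129S2 sequence was not analysed here.

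The remaining higher genes have other roles. Cnmd, chondromodulin, a membrane glycoprotein of cartilage that restrains blood vessel growth, read 5.95, 6.66 and 6.27 in 129S2 and between 4.01 and 5.18 with a median of 4.54 elsewhere (difference 1.70 ± 0.119, limma adjusted p = 4.15e-08). Osbpl3, an oxysterol-binding protein, read 9.83, 9.22 and 10.20 in 129S2 and between 7.71 and 9.01 with a median of 8.61 elsewhere, and array 2 was the nearest of the 129S2 arrays to the others (difference 1.35 ± 0.129). BC023105, a gene for which no role is given here, read 5.36, 6.01 and 7.32 in 129S2 and between 3.60 and 4.22 with a median of 3.80 elsewhere. Its 129S2 arrays were spread over almost 2 units but all lay above the rest, and the difference was 2.37 ± 0.232 (limma adjusted p = 2.59e-06). Kif5c, a kinesin motor of neurons, differed by 1.03 and Arc, an immediate-early gene of synapses, by 0.94, each at low signal. Gm38983 (1.17) and 2700038G22Rik (0.94) complete the 15.

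Within 129S2, the arrays had the same order for Pam and Pdlim3 as for the atrial markers. Pam encodes an enzyme that amidates peptide hormones and is abundant in atrial membranes; it read 9.96, 9.71 and 9.19 in 129S2 and between 6.97 and 9.03 with a median of 7.91 elsewhere. Pdlim3 encodes an actinin-associated LIM protein of striated muscle and read 10.19, 9.86 and 9.12 in 129S2 and between 7.10 and 8.97 with a median of 8.21 elsewhere. In both, array 3, with the low atrial markers, was the lowest of the 129S2 arrays and lay only just above the highest other array. In the other strains Pam followed the markers in part only. AKR/J array 3 was the lowest of its strain in both (markers 7.17, Pam 7.52). DBA2/J, with markers at 6.84, 8.02 and 6.99, had the highest Pam mean of the other strains (8.85). Pdlim3 averaged 8.86 in C3HeB/FeJ, with an SD of 0.09 and markers at 12.05, 12.18 and 12.42. In AKR/J it averaged 8.12, with an SD of 0.65 and markers at 11.72, 12.13 and 7.17. Its mean was 8.25 in A/J (markers 11.85, 9.70 and 10.84) and 7.71 in C57BL/6J (markers 6.28, 11.96 and 10.31). The differences were 1.66 ± 0.171 for Pam and 1.54 ± 0.255 for Pdlim3 (limma adjusted p = 4.49e-06 and 0.000754). With the atrial marker mean as a covariate, a setting added after seeing the data, they were 1.62 and 1.41. Both still passed (limma adjusted p = 1.30e-06 and 8.98e-08), for Pdlim3 at a far smaller adjusted p than without the covariate.

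**Figure D3:**
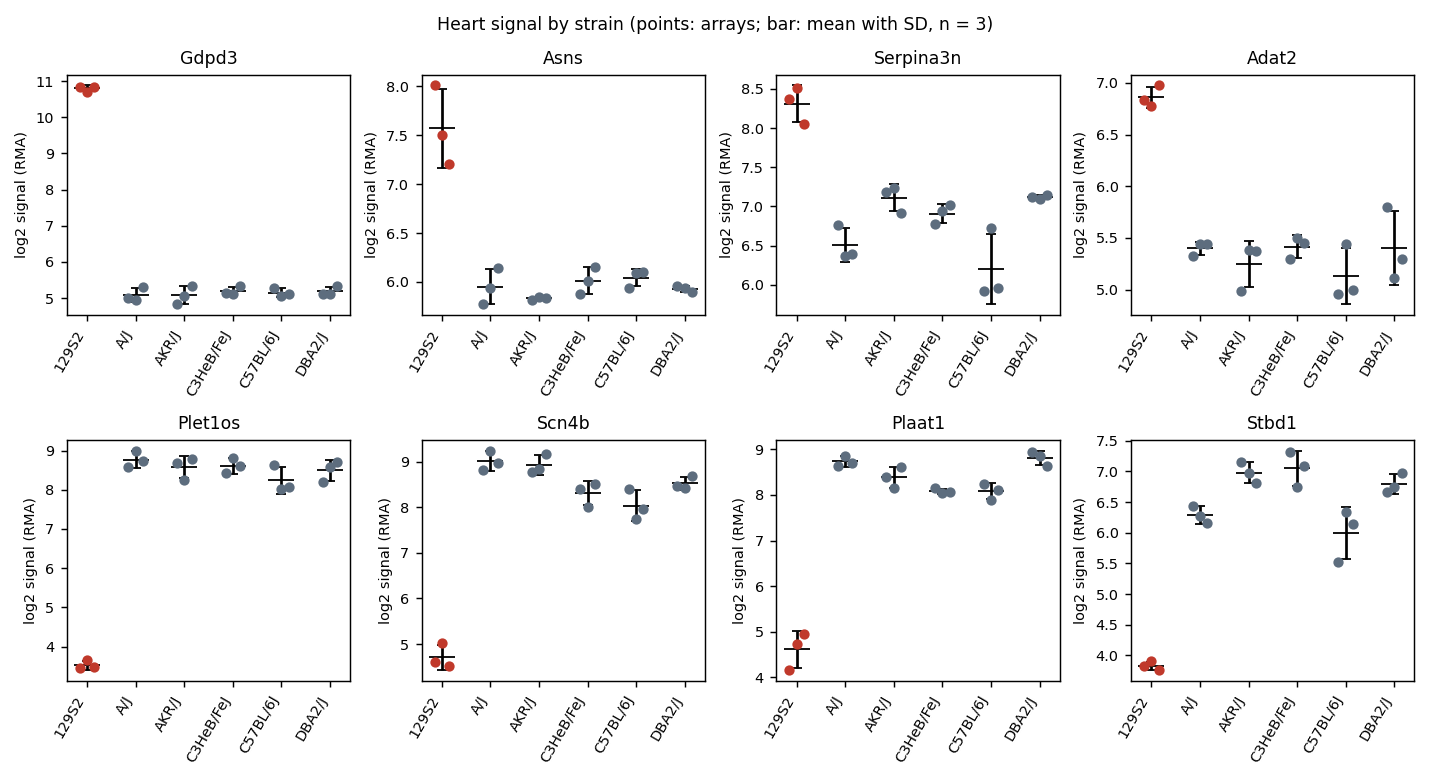
Log2 signal of 8 genes on each heart array, with the strain on the horizontal axis and 129S2 in red; bars give the mean with SD (n = 3). Gdpd3, Asns, Serpina3n and Adat2 in the upper row are above all other arrays in 129S2, and Plet1os, Scn4b, Plaat1 and Stbd1 in the lower row are below all of them.

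The 3 genes with the largest negative differences were Plet1os, Scn4b and Plaat1. Scn4b encodes the β4 subunit of voltage-gated sodium channels, which shapes the opening of the main cardiac sodium channel. It read 4.60, 5.01 and 4.51 in 129S2 and between 7.74 and 9.24 with a median of 8.51 on the other arrays. The 129S2 arrays fell under the array median while every other array was well above it, and the difference was -3.85 ± 0.137 (limma adjusted p = 2.34e-12). Plaat1, an acyltransferase that moves acyl chains between phospholipids, read 4.17, 4.73 and 4.95 in 129S2 and between 7.89 and 8.94 with a median of 8.40 elsewhere (difference -3.80 ± 0.123, limma adjusted p = 6.1e-13). Its other probe set passed the same way. Plet1os, a transcript named for its place on the strand opposite Plet1, read 3.45, 3.65 and 3.47 in 129S2 and between 8.01 and 8.99 with a median of 8.60 elsewhere (difference -5.01 ± 0.138, limma adjusted p = 7.87e-14). Plet1 itself read 6.20, 6.00 and 5.89 in 129S2 and between 5.59 and 6.42 elsewhere, with a difference of 0.07 ± 0.106 (limma adjusted p = 0.741); it was looked up after the value of Plet1os was seen.

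Stbd1, Bdh1 and Amacr, which act on glycogen, ketone bodies and branched fatty acids, were also low. Stbd1, which tethers glycogen to membranes, read 3.83, 3.90 and 3.77 in 129S2 and between 5.52 and 7.31 with a median of 6.74 elsewhere (difference -2.79 ± 0.134, limma adjusted p = 2.37e-10). Bdh1, the mitochondrial β-hydroxybutyrate dehydrogenase that lets the heart burn ketone bodies, read 8.50, 8.76 and 9.95 in 129S2 and between 10.24 and 11.13 with a median of 10.81 elsewhere. Amacr, a racemase that readies branched fatty acids for oxidation, read 6.99, 6.58 and 8.51 in 129S2 and between 8.65 and 9.33 with a median of 8.91 elsewhere. In both genes array 3 was over a unit above the other two 129S2 arrays and still under all arrays of the other strains. The differences were -1.67 ± 0.216 for Bdh1 and -1.60 ± 0.227 for Amacr (limma adjusted p = 6.17e-05 and 0.000173). Without array 2 they remained past the threshold (limma adjusted p = 0.00151 and 0.00225). Array 3 was also the 129S2 array with low atrial markers (7.23), and without it the differences were -2.11 and -2.18. With the atrial marker mean as a covariate, a setting added after seeing the data, they were -1.58 and -1.52 (limma adjusted p = 7.89e-07 and 1.42e-05).

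The next genes encode proteins of the membrane and its traffic. Cd59a, which blocks assembly of the complement membrane attack complex on host cells, read 7.65, 7.94 and 7.36 in 129S2 and between 9.51 and 9.87 with a median of 9.67 elsewhere (difference -2.05 ± 0.0832, limma adjusted p = 1.92e-11), and its other probe set passed the same way. Ndrg4, a gene needed for heart growth in zebrafish, read 10.40, 9.57 and 9.94 in 129S2 and between 11.18 and 12.08 with a median of 11.76 elsewhere (difference -1.74 ± 0.109). Snap91, a clathrin assembly protein of synapses, read 4.26, 4.68 and 4.36 in 129S2 and between 5.85 and 6.60 with a median of 6.41 elsewhere (difference -1.94 ± 0.0996). For each of them all 3 129S2 arrays lay below the lowest array of the other strains.

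Lars2, the mitochondrial leucyl-transfer RNA synthetase, read 6.57, 6.13 and 6.67 in 129S2 and between 7.84 and 8.25 with a median of 8.03 elsewhere (difference -1.58 ± 0.0851, limma adjusted p = 1.01e-09). Ankrd33b, an ankyrin repeat gene, read 3.98, 3.91 and 4.22 in 129S2 and between 6.10 and 7.81 with a median of 7.57 elsewhere, with A/J the lowest of the other strains (difference -3.29 ± 0.102). The transcript 1700120C14Rik (-1.99) and the zinc finger gene Zfp931 (-1.49) were apart as well. Galc, the lysosomal galactosylceramidase, read 4.09, 4.04 and 4.72 in 129S2 and between 5.56 and 6.29 with a median of 5.89 elsewhere (difference -1.62 ± 0.122).

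Probe sets of a gene did not always move together. Of the 314 apart genes, 176 had more than 1 probe set; another set passed the same way for 72 of them and the opposite way for 10, and for 96 no other set passed. For comparison 7.82% of all 34945 single-gene probe sets passed. Among the 30 genes with the largest differences 12 had more than 1 probe set, with another passing the same way in 6 and the opposite way in 2. Galc was one of these: a set with a mean of 6.16 in 129S2 and 5.58 in the other strains was higher in 129S2 by 0.59 ± 0.121 (limma adjusted p = 0.00463). For Osbpl3 a set averaging 5.89 in 129S2 and 6.36 in the other strains was lower in 129S2 (difference -0.47, limma adjusted p = 0.0262). The other 2 sets of Ankrd33b differed by 0.17 and -0.02 and neither passed.

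Of 17 heat-shock chaperone genes measured, whose products refold or hold damaged proteins, 10 passed as lower and 0 as higher, against 5.38% and 3.11% of all genes. Their median difference was -0.48, against 0.01 over all genes. The mean of the 17 was 10.48, 10.33 and 10.41 on the 129S2 arrays and lay between 10.46 and 11.87 elsewhere, so that 1 of the 129S2 arrays overlapped, with an A/J array. Without 129S2 array 2 the count was 5 lower and 1 higher, against 3% and 2.05% of all genes, and the median -0.40. Of the 10 genes, only Hspb7, Cryab, Hspb8 and Dnaja1 still passed as lower. The 5 therefore include a gene that did not pass on all arrays. Without DBA2/J the lower count was also 5.

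Of the small heat-shock proteins, Hspb7, Cryab and Hspb8 were apart from every strain. Hspb6, another one of muscle, read 13.17, 12.66 and 13.36 in 129S2 and between 12.65 and 13.16 with a median of 12.97 elsewhere, with a difference of 0.11 that did not pass (limma adjusted p = 0.54; 0.31 and 0.0149 without array 2). Hspb7, a cardiac small heat-shock protein that guards actin filaments, read 11.69, 11.05 and 12.08 in 129S2 and between 12.79 and 13.38 with a median of 13.15 elsewhere (difference -1.51 ± 0.137, limma adjusted p = 1.01e-06). However, the other 2 Hspb7 probe sets averaged 12.44 and 12.71 in 129S2, against 12.36 and 12.72 in the other strains, and did not pass. Cryab, αB-crystallin, which binds desmin and titin, read 13.11, 12.64 and 13.30 in 129S2 and between 13.34 and 13.78 with a median of 13.66 elsewhere (difference -0.57 ± 0.0872, limma adjusted p = 0.000338). Hspb8, which works with the co-chaperone Bag3 to clear misfolded proteins, read 11.30, 10.89 and 11.27 in 129S2 and between 11.53 and 11.82 with a median of 11.70 elsewhere (difference -0.53 ± 0.0812, limma adjusted p = 0.000351). In Hspb7, Cryab and Hspb8 array 2 was the lowest, and each also passed without it (limma adjusted p = 1.65e-06, 0.000647 and 0.00374).

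The other 7 chaperone genes that passed overlapped with arrays of other strains. Hspa1a, an inducible Hsp70, read 6.31, 5.63 and 5.45 in 129S2 and between 4.99 and 10.74 with a median of 7.43 elsewhere, so that the groups overlapped. Its strain means were 5.66 in A/J, 6.35 in C57BL/6J, 7.79 in DBA2/J, 8.0 in C3HeB/FeJ and 9.64 in AKR/J, with A/J below 129S2. The difference of -1.69 ± 0.512 only just passed (limma adjusted p = 0.0493) and did not pass without array 2 (-1.61, limma adjusted p = 0.191). Hspa1a and Hspa1b are near-identical copies whose probes may not separate them. Hsph1, an Hsp110 exchange factor (-0.97 ± 0.228), Dnajb1, an Hsp40 (-0.88 ± 0.2), Bag3 (-0.48 ± 0.106), Hspa4l (-0.48 ± 0.119) and Hspb1 (-0.33 ± 0.1) passed on all arrays but not without array 2. Dnaja1, another Hsp40, was lower by both fits (-0.75 ± 0.184, limma adjusted p = 0.0164 with array 2 and 0.00932 without it).

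**Figure D4:**
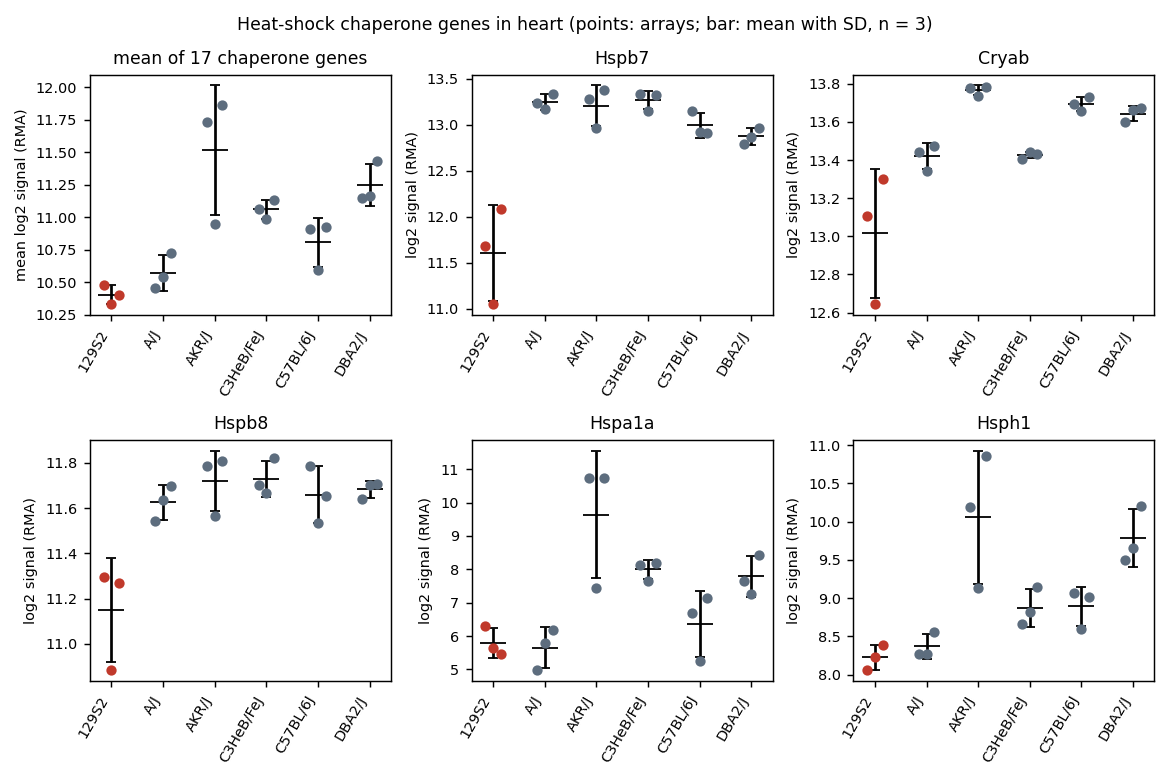
Mean log2 signal of 17 heat-shock chaperone genes and log2 signal of 5 of them on each heart array, with the strain on the horizontal axis and 129S2 in red; bars give the mean with SD (n = 3). Hspb7, Cryab and Hspb8 lie below all other arrays in 129S2, while Hspa1a and Hsph1 overlap with A/J and have their highest values in AKR/J.

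Heat-shock genes are switched on by HSF1, which binds repeats of GAA facing each other. The promoters of 3 of the lower genes that hold such a core are shown, from RefSeq on GRCm38.p6, 5′ to 3′ in the direction of the gene, with the letters GAANNTTC in capitals: Hspa1a at chr17:34972157-34972276 (- strand), Dnaja1 at chr4:40722294-40722413 (+ strand) and Hspb1 at chr5:135887799-135887918 (+ strand).
Hspa1a: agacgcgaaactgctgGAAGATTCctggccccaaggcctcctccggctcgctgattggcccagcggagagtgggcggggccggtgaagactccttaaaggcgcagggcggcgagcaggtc
Dnaja1: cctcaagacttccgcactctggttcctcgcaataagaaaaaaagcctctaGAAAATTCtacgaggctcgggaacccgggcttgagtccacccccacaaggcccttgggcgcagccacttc
Hspb1: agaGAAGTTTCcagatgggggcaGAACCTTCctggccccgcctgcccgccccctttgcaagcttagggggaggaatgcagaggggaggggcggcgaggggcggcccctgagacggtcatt
The core reads the same on both strands. It occurred within the 250 bases before the start in 6.69% of 32851 promoters, in 3 of the 9 lower chaperone genes that had an entry, and in 4 of the 5 chaperone genes with an entry that did not pass. A match is a description of letters in this window and not a site.

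Genes of fatty acid oxidation, the main fuel path of the heart, passed as lower in 5 of 23 measured and as higher in 0, against 5.38% and 3.11% of all genes, with a median difference of -0.22. Hadh, the short-chain 3-hydroxyacyl-CoA dehydrogenase, read 12.36, 12.31 and 12.51 in 129S2 and between 12.30 and 13.85 with a median of 13.61 elsewhere, and the difference was -0.99 ± 0.0581 (limma adjusted p = 3.62e-09). The low value was shared with AKR/J, whose mean was 12.33, while the other 4 strain means lay between 13.50 and 13.84. Ech1, which moves double bonds of unsaturated fatty acids, was the member apart from all strains: it read 13.17, 13.21 and 13.39 in 129S2 and between 13.41 and 13.74 with a median of 13.63 elsewhere (difference -0.35 ± 0.056, limma adjusted p = 0.000579). Both passed without array 2, which left 2 of 23 as lower against 3% of all genes. Etfdh, which hands electrons from this path to ubiquinone (-0.33), Plin5, a lipid droplet protein of muscle (-0.32), and Slc25a20, the carnitine-acylcarnitine carrier (-0.26), did not (limma adjusted p = 0.186, 0.0635 and 0.0648).

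The lists here are set against 5.38% of all genes passing as lower and 3.11% as higher, or 3% and 2.05% without array 2. Genes of glucose metabolism had a median difference of -0.23 and passed as lower in 3 of 21. These were Slc2a1, a glucose transporter (-0.44), Pygb, brain glycogen phosphorylase (-0.42), and Pdk1, which restrains pyruvate dehydrogenase (-0.25). None of the 3 passed without array 2, when 1 other member passed as higher. Oxidative phosphorylation genes, which encode the respiratory chain, passed in 2 of 75, both lower: Ndufs5 (-0.22) and Sdhd (-0.22), with 3 lower without array 2 and a list median of -0.03. Phospholipid genes passed as higher in 2 of 32 and as lower in 4. The higher ones were Gdpd3 and Lpar6, a receptor for lysophosphatidic acid, which read 8.04, 8.58 and 8.51 in 129S2 and between 7.49 and 8.02 with a median of 7.79 elsewhere (difference 0.59 ± 0.102, limma adjusted p = 0.00113). The lower ones were Plaat1, Pla2g4e (-0.45) and Pla2g6 (-0.26), which are phospholipases, and Mgll, monoacylglycerol lipase (-0.29). Pla2g4e and Mgll did not pass without array 2 (limma adjusted p = 0.222 and 0.0564).

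Glutathione and redox genes passed as higher in 2 of 30 and as lower in 6, against 3.11% and 5.38% of all genes. Their median was -0.04. Without array 2 the balance turned, with 3 higher and 1 lower, against 2.05% and 3% of all genes, and a median of 0.00. Gsta4, a glutathione transferase for lipid peroxidation products, read 9.21, 9.13 and 9.34 in 129S2 and between 9.63 and 9.89 with a median of 9.82 elsewhere (difference -0.58 ± 0.0565, limma adjusted p = 2.23e-06). Gstt2, a transferase of the theta class, moved the other way, at 6.92, 7.16 and 7.03 in 129S2 and between 5.75 and 6.91 with a median of 6.33 elsewhere (difference 0.70 ± 0.0863, limma adjusted p = 3.66e-05). Both were apart. Glo1, which detoxifies methylglyoxal, was higher by 0.54 but read 11.76 in A/J, above the 129S2 mean of 11.63.

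Immune genes moved in both directions. MHC class II genes present antigen on macrophages, dendritic cells and B cells. They passed as higher in 5 of 11 and as lower in 0, against 3.11% and 5.38% of all genes. Without array 2, 4 of 11 passed as higher, against 2.05% of all genes. H2-Ab1 read 8.66, 9.15 and 8.82 in 129S2 and between 6.09 and 9.32 with a median of 7.22 elsewhere, with a difference of 1.30 ± 0.157 (limma adjusted p = 3.08e-05). The groups overlapped, because C57BL/6J averaged 9.04, while the other 4 strains averaged between 6.65 and 7.88. H2-Aa (1.13), H2-Eb1 (1.07) and the invariant chain gene Cd74 (0.70) were likewise highest in C57BL/6J, with 129S2 next. Of 11 macrophage markers and 8 lymphocyte markers measured, 0 passed; macrophage markers averaged 8.50, 8.98 and 8.35 in 129S2 and 8.04 to 9.0 elsewhere. MHC class I genes passed as higher in 2 of 13 and as lower in 3, against the same 3.11% and 5.38%, and in 1 and 2 without array 2. H2-K1 was higher by 1.66 ± 0.115, at 10.66, 10.68 and 10.57 in 129S2, but C57BL/6J averaged 11.18 and DBA2/J 10.55; class I genes are near-identical to each other, and of the 3 other H2-K1 probe sets 1 passed, also higher.

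Interferon-stimulated genes passed as lower in 6 of 33 and as higher in 1, against 5.38% and 3.11% of all genes. Their median was -0.23. Without 129S2 array 2, 5 passed as lower, against 3% of all genes, and without array 1, 2 did. Oasl2, an oligoadenylate synthetase-like antiviral gene, was the member apart, at 5.82, 5.62 and 5.81 in 129S2 and between 5.86 and 7.08 with a median of 6.55 elsewhere (difference -0.76 ± 0.132, limma adjusted p = 0.00111). Oas2 (-0.57), Bst2 (-0.39), Oas1a (-0.35) and Gbp2 (-0.34) passed with overlapping groups. Iigp1, an immunity-related GTPase, was the higher one, at 9.53, 9.90 and 10.45 in 129S2 and between 7.65 and 9.64 with a median of 8.92 elsewhere (difference 1.17 ± 0.169, limma adjusted p = 0.000196). Xaf1 had no settled direction, since the set used differed by -0.78 and its other set by 2.60. Complement genes passed as lower in 1 of 15, Cd59a, and as higher in 1, Hc, complement component 5 (0.31), which did not pass without array 2.

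Genes of contraction and conduction are set against 8.49% of all genes passing in either direction. Of 23 sarcomere genes measured, 0 passed (median -0.02; 1, higher, without array 2), and of 8 cardiac stress genes, 0. Potassium and sodium channel genes passed as lower in 2 of 17 (3 lower and 1 higher without array 2): Scn4b and Kcnj11, the pore of the ATP-sensitive potassium channel, which read 8.43, 8.32 and 8.59 in 129S2 and between 8.43 and 9.18 with a median of 8.88 elsewhere (difference -0.36 ± 0.071, limma adjusted p = 0.00342). Calcium handling genes passed as higher in 1 of 16 and as lower in 2. The higher one was Trdn, triadin of the calcium release unit (0.75 ± 0.141, limma adjusted p = 0.00236). Another Trdn probe set passed the same way at 0.45, while its remaining sets differed by 0.20 to 0.32 and did not pass. The lower ones were Slc8a1, the sodium-calcium exchanger (-1.03), and Jph2, junctophilin 2 (-0.40); in both array 2 was the lowest of all 129S2 arrays by over 0.5 units, at 6.67 and 9.91, and neither passed without it (limma adjusted p = 0.126 and 0.471).

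Each list of this paragraph is set against 5.38% of all genes passing as lower and 3.11% as higher. Without array 2 these shares were 3% and 2.05%. Matrix genes of fibroblasts passed as lower in 6 of 29 and as higher in 1 (3 and 0 without array 2). All 29 had a mean heart signal of at least 6, where genes passed more often, as given below. The lower ones included Col6a3 (-0.68 ± 0.0977, limma adjusted p = 0.000203), Col4a1 (-0.73 ± 0.144, limma adjusted p = 0.0036) and Col8a1 (-0.45), which encode collagen chains and passed without array 2 as well. The higher one was Ogn, osteoglycin (0.43), which did not. Endothelial markers passed as lower in 3 of 10, Kdr (-0.55), Cdh5 (-0.49) and Tie1 (-0.34), and in 0 without array 2. Core clock genes passed as lower in 4 of 18, among them Per3 (-0.70) and Per1 (-0.67), which belong to the negative limb of the clock, and in 0 without array 2; the hour of dissection was not given in the sources used here. Glucocorticoid-responsive genes passed as lower in 3 of 16 (4 without array 2), of which Sgk1, a kinase, was apart at 8.81, 8.78 and 8.72 in 129S2 and between 8.84 and 9.72 with a median of 9.38 elsewhere (difference -0.52 ± 0.111), with Mt1, a metallothionein (-0.54), and Per1. The immediate-early genes Junb (0.70) and Ier2 (0.57) were higher among 16, and not without array 2. Over the 20 pathway lists together 406 genes were measured. Of these, 17 passed as higher (4.19%, against 3.11% of all genes), 56 as lower (13.8%, against 5.38%) and 13 were apart (3.20%, against 1.73%). Without array 2 the lower count was 31, and without array 3 it was 88. Genes with heart signal passed more often than all genes, which limits the shares set beside this and each single list. Of the 9424 genes with a mean heart signal of at least 6, tested alone, 448 were higher and 1063 lower. In that setting 15 list members were higher and 66 lower. In the main fit 233 of these 9424 genes were apart.

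Markers of other cell types mostly did not pass. Adipose (7), erythroid (5), lung (8), liver (7), thymus (7), neutrophil (7) and mesothelium (6) markers had 0 passing. Adipose markers averaged 8.39, 8.72 and 7.40 in 129S2 and 7.10 to 9.25 elsewhere. Ucp1, the uncoupling protein of brown fat, was higher by 1.53 ± 0.465 over all 3 129S2 arrays. It read 7.37, 7.03 and 4.36 in 129S2 and between 4.01 and 6.13 with a median of 4.41 elsewhere. Only 2 of the 3 arrays lay above the others, and Ucp1 did not pass without array 2. Myl1, a fast skeletal myosin light chain, was lower with a difference of -1.32 and overlapped with the other strains (9.67, 9.50 and 7.75 in 129S2 and between 7.37 and 12.34 with a median of 10.61 elsewhere). Smtn of smooth muscle (-0.43) passed as 1 of 7. Neither Myl1 nor Smtn passed without array 2, when 1 macrophage and 2 brown fat markers passed as lower. Uchl1 of neurons (0.42) passed as 1 of 7, and brain, kidney and testis markers had 0 passing. The part of these markers in these results was not tested.

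The same contrast in the other 5 tissues, on other arrays and partly from the same animals, showed how far the heart differences reached. Of the 314 genes apart in heart, 165 passed in the same direction in kidney, 136 in lung, 104 in testis, 102 in liver and 75 in brain. The share of all genes passing in either direction was 30.7% in kidney, 13.3% in lung, 17.1% in testis, 12.4% in liver and 5.21% in brain, while the heart genes passed in the same direction in 52.5%, 43.3%, 33.1%, 32.5% and 23.9%. In the opposite direction 14 passed in kidney, 3 in lung, 18 in testis, 12 in liver and 6 in brain. In all 5 other tissues 36 of the genes passed in the same direction, and in none of them 83. Of the 30 largest, 10 were shared by all 5 tissues: Gdpd3, Pam, Adat2, Gm38983, Ankrd33b, Cd59a, Galc, Amacr, Lars2 and Zfp931. Each gene was read by the same probe set in every tissue. Sequence differences between strains under its probes were not looked at and could recur in every tissue. In heart, another set passed the same way for Cd59a and Lars2 and the opposite way for Galc, and none passed for Ankrd33b. Pdlim3, Arc, Scn4b, 1700120C14Rik, Ndrg4 and Bdh1 passed in the same direction in none.

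**Figure D5:**
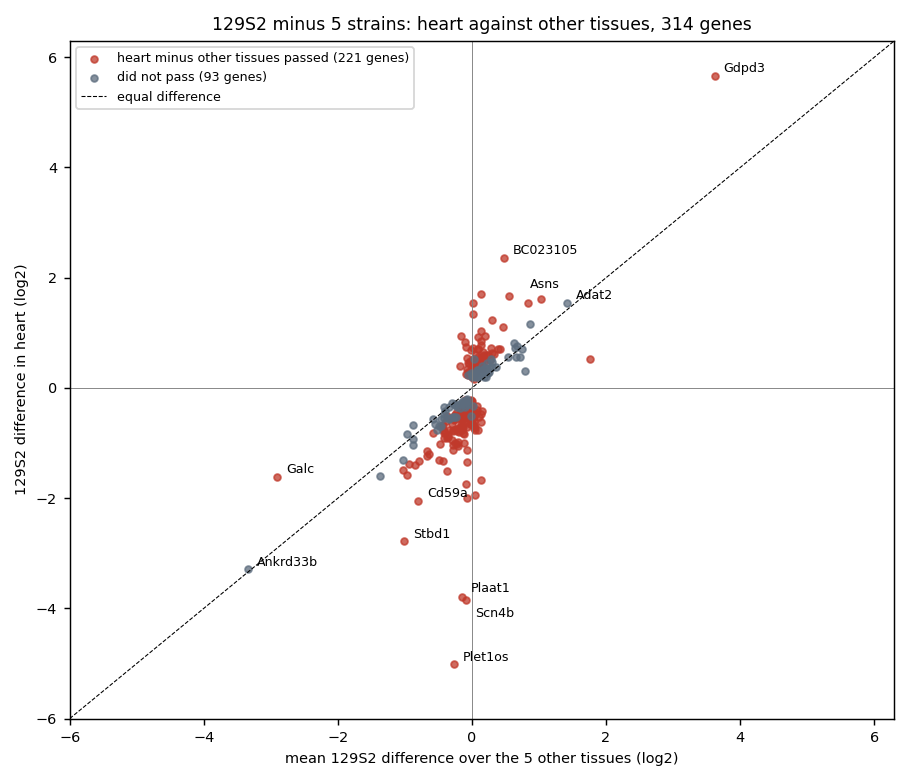
The 129S2 difference in heart (vertical axis, log2) against its mean over the 5 other tissues (horizontal axis, log2) for the 314 genes apart in heart; the dashed line marks equal differences and red marks genes whose heart minus other tissues contrast passed. Plet1os, Scn4b and Plaat1 lie far down near 0 on the horizontal axis, while Adat2 and Ankrd33b lie near the dashed line.

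How the heart difference compared with the other tissues was measured by the heart difference minus the mean difference of the 5 other tissues on all 108 arrays, with the animal as a random block. It passed for 2884 of all genes (15.9%) and for 221 of the 314, in 219 of them with the sign of the heart difference. Without 129S2 heart array 2 it passed for 160 of them. The 314 genes were chosen on heart values that also enter this contrast, so these counts and signs are partly fixed by the choice and are a description. Scn4b differed by -3.85 in heart, against -0.44 in lung, -0.14 in brain, 0.00 in testis, 0.06 in liver and 0.07 in kidney. Plaat1 differed by -3.80 in heart, against -0.21 in lung, -0.27 in brain, -0.13 in testis, 0.13 in liver and -0.26 in kidney. The contrast was -3.76 for Scn4b, -3.65 for Plaat1 and -4.75 for Plet1os. Levels bound what could differ: Plet1os averaged between 3.63 and 3.95 in 129S2 and between 3.75 and 4.58 in the other strains over the 5 other tissues, so that little lower value could show there. Scn4b had high signal in brain (10.16 in 129S2 and 10.29 in the other strains) and kidney (8.20 in 129S2 and 8.13 in the other strains), but averaged 5.67 or less in the other strains in lung, liver and testis. Plaat1 had high signal in testis (11.83 in 129S2 and 11.96 in the other strains) and brain (7.66 in 129S2 and 7.94 in the other strains), but 4.94 or less in the other strains in kidney, liver and lung.

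Other genes were shared across tissues in unequal measure. Gdpd3 was higher in every tissue, by 5.66 in heart, 5.17 in liver, 4.66 in lung, 3.60 in kidney, 3.23 in brain and 1.41 in testis. Asns was higher by 1.62 in heart and by 3.61 in liver, 1.12 in kidney and 0.23 in lung, but differed by 0.09 in brain and 0.09 in testis. Adat2 was even, at 1.54 in heart and between 0.89 and 1.70 elsewhere. Some genes turned round. Stbd1, with a difference of -2.79 in heart and of -3.40 in kidney, was higher in 129S2 brain by 1.01 (limma adjusted p = 0.00458). Nxpe3, higher by 0.39 in heart, was lower in kidney (difference -2.45, limma adjusted p = 1.07e-12). Snap91 was higher in kidney (0.79), Cnmd lower in testis (-0.66) and Bdh1 higher in testis (0.44).

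The heat-shock and immune lists were set beside the other tissues in the same way. Chaperone genes passed as lower in 9 of 17 in kidney, 7 in liver, 7 in lung, 2 in brain and 2 in testis, and as higher in 1 in kidney, 2 in brain and 1 in testis. The background of lower calls was 16.2% in kidney, 6.69% in liver, 6.89% in lung, 2.53% in brain and 7.77% in testis. Interferon-stimulated genes passed as lower in 25 of 33 in liver, 13 in kidney, 10 in lung, 4 in brain and 3 in testis, and as higher in 5 in kidney, 1 in lung and 2 in testis. MHC class II genes passed as higher in 9 of 11 in kidney, where 14.5% of all genes did, in 5 in liver, where 5.75% did, in 2 in lung, where 6.37% did, in 1 in brain, where 2.67% did, and in 0 in testis, where 9.29% did; 1 passed as lower in lung and 1 in testis. The differences between tissues in these counts were not tested.

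Apart genes lay on all autosomes and on X, where 2 of 617 measured genes were apart. By share, the highest were 21 of 640 on chromosome 14 (3.28%), 22 of 724 on chromosome 15 (3.04%) and 29 of 1002 on chromosome 9 (2.89%), against 1.73% over all genes. In the order of genes on GRCm38.p6, 5 runs of directly neighbouring measured genes were apart in 1 direction, with 11 genes in all. The longest, on chromosome 9, held Lars2, Limd1, a LIM protein of cell adhesion (-1.39 ± 0.0976), and Sacm1l, a phosphoinositide phosphatase (-0.45 ± 0.0582), all lower. Limd1 read 6.91, 7.02 and 7.19 in 129S2 and between 8.17 and 8.98 with a median of 8.39 elsewhere, and Sacm1l 8.56, 8.50 and 8.45 in 129S2 and between 8.72 and 9.24 with a median of 8.88 elsewhere. On chromosome 15 Lypd2 (-0.81) and Lynx1 (-0.99), Ly6 family genes that share their fold with each other, were both lower. The other pairs were Pyurf and Lancl2 on chromosome 6 (-0.65 and -0.60), Tor3a and Fam20b on chromosome 1 (-0.55 and -0.24), and, higher, Cfap20dc and Fhit on chromosome 14 (0.70 and 0.36). Fam20b and Fhit did not pass without array 2. Copy number was not analysed here.

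Set against each strain singly, 129S2 heart differed in 2773 genes from DBA2/J, 1138 from C3HeB/FeJ, 1009 from AKR/J, 1004 from A/J and 994 from C57BL/6J, by limma over 18194 genes. In all 5 comparisons with 1 sign, 132 genes passed, 128 of them among the 314. C57BL/6J was the nearest strain to 129S2 for 116 of the 314 genes and DBA2/J for 26. Across genes, 129S2 arrays 1 and 2 were nearest to each other (r = 0.351 of deviations from the mean of all heart arrays), while array 3 was nearest to C57BL/6J array 2 (r = 0.320). Both 129S2 array 3 and C57BL/6J array 2 had low atrial markers, at 7.23 and 6.28. The part of these markers in that nearness was not tested. Just inside the threshold lay Trmt112, which read 9.98, 9.96 and 9.98 in 129S2 and between 9.70 and 9.93 with a median of 9.81 elsewhere, and Parpbp, which read 4.20, 4.23 and 4.21 in 129S2 and between 3.76 and 4.17 with a median of 4.01 elsewhere. Just outside, with arrays that did not overlap, lay Ddx6, at 8.31, 8.26 and 8.42 in 129S2 and between 8.43 and 8.75 with a median of 8.52 elsewhere, and Recql, at 4.80, 4.80 and 4.92 in 129S2 and between 4.55 and 4.78 with a median of 4.66 elsewhere. With 3 arrays in 129S2, the number of arrays limits the precision. In simulated data with the same numbers of arrays, 83% of changes of 0.5 log2 units and 100% of changes of 1 unit were recovered. There were 12 false calls among the genes left unchanged. All arrays of a gene were drawn there with the same spread and no other strain differences. The simulation held no outlying array such as 129S2 array 2 and did not apply the rule for apart genes. Its rates therefore cannot be carried over to these arrays.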

How the data were processed

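The deposited table holds log2 expression values that the authors made with RMA, per the submitters' processing notes; no version was given, and the table has no detection calls. RNA of whole tissues was hybridised to Affymetrix mouse arrays, 1 array per sample, per the labels. Of 45101 probe sets, 64 controls, 932 listed with several genes and 9160 with none were left out, and the remaining 34945 cover 18194 genes. Genes were tested with limma 3.58.1 in R 4.3.3, with 1 mean per strain on the 18 heart arrays. The contrast across tissues used all 108 arrays, with the animal named in the title as a random block (consensus correlation 0.0215 from 4000 genes). Figures were drawn with matplotlib 3.10.9. The fit was tested on simulated data with the same groups and numbers of arrays, within the limits given above. Arrays of 1 number in different strains did not deviate together (correlations from -0.504 to 0.526, median -0.0104), so the numbers were not taken as pairs.

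The named genes are the 15 largest differences in each direction among the apart genes, up to 4 passing members of each list, up to 6 runs of neighbours, the 5 widest opposite signs, the 8 largest heart minus other tissues contrasts and 2 genes on each side of the threshold. Slc25a20, Mgll, Pla2g6, Bst2, Oas1a, Gbp2 and the remaining chaperones were named beyond that rule after their values were seen. The members and lists were chosen with earlier results of these data known. Replicates are separate animals by title, although the labels speak of pools; if samples share a source, p-values measure only the spread between these samples. Gene names, order and promoters come from RefSeq GRCm38.p6, and 34741 probe sets matched by gene ID. Probe sequences were not analysed here. Alternatives are given in the closing section.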

Additional observations from a re-analysis of the deposited data

Results flagged for a closer look

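Among the 30 apart genes with the largest heart differences, 15 in each direction, 26 differed between heart and the other tissues. This was by the test of that difference itself (limma on all arrays, animal as a random block). The value given is the 129S2 difference in heart minus its mean over brain, kidney, liver, lung and testis, in log2 units. The genes were chosen for their heart values, which also enter this contrast, so the count is partly fixed by the choice.

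Among the genes higher in 129S2 heart, the contrast was 2.04 for Gdpd3, 1.89 for BC023105 and 1.56 for Cnmd. It was 1.52 for Pdlim3, 1.32 for Osbpl3, 1.12 for Pam and 1.11 for Arc. Smaller values were found for Hal (0.94), Kif5c (0.89), 2700038G22Rik (0.74), Serpina3n (0.70), Blvrb (0.65) and Asns (0.59). The Asns difference was larger in liver (3.61) than in heart (1.62).

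Among the genes lower in 129S2 heart, the contrast was -4.75 for Plet1os, -3.76 for Scn4b and -3.65 for Plaat1. Plet1os had low signal in all 5 other tissues, between 3.63 and 3.95 in 129S2 and between 3.75 and 4.58 in the other strains, where a lower value could hardly show; Scn4b was likewise low in liver and testis and Plaat1 in kidney, liver and lung. The contrast was -1.97 for Snap91, -1.92 for 1700120C14Rik, -1.80 for Bdh1, -1.78 for Stbd1 and -1.65 for Ndrg4. Cd59a (-1.24), Hspb7 (-1.14), Lars2 (-0.61) and Zfp931 (-0.47) followed. Galc went the other way, with 1.29; its difference was more negative in kidney (-5.09) and testis (-3.08) than in heart (-1.62). The causes of these differences between tissues were not tested.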

How the results depend on the processing

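Of the 30 genes with the largest differences, 950 of 952 values under 32 alternatives kept their direction and their side of the threshold; the exceptions came from reading the probe set that is highest in heart, which gave 0.59 for Galc and 0.23 for Kif5c (limma adjusted p = 0.00494 and 0.208). Xaf1 turned to 0.91 with all probe sets averaged. Leaving out 1 array at a time gave 373 to 819 genes higher and 546 to 1450 lower, 121 to 337 higher and 187 to 597 lower among apart genes, 5 to 12 chaperone genes lower, 4 to 5 MHC class II genes higher, 2 to 7 interferon-stimulated genes lower, and 14 to 25 members of the pathway lists higher and 31 to 88 lower. The heart minus other tissues contrast passed for 160 apart genes without array 2 of 129S2. Of 99 named genes, 33 no longer passed without that array.

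With all arrays and an animal block, 1443 genes were higher and 2182 lower, and the lists gave 26 higher, 99 lower and 11 interferon-stimulated genes lower. Array weights gave 308 higher and 488 lower, 27 list members lower, 5 chaperone and 3 interferon-stimulated genes lower. Without DBA2/J 599 genes, 35 list members and 5 chaperone genes were lower, and without C57BL/6J 328 apart genes were lower. Centring arrays on their median left 84 apart genes higher and gave 426 genes higher and 1275 lower among all that passed, against 566 and 978. A mean heart signal of at least 6 left 69 apart genes higher. Requiring all 5 pairwise tests gave 43 higher and 89 lower, a gap of at least 0.5 gave 10 and 22, and a difference of at least 1 gave 35 and 52. Replicate numbers as a block gave 504 higher and 902 lower and moved no count above by over 1.5 times. The causes of these shifts were not tested, apart from stricter rules and fewer arrays, which act by construction. The atrial covariate and the settings without array 2 of 129S2 for other tissues were chosen after seeing the data. Precision is limited by 3 arrays per strain and by low signals, which lie near or below the array median.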

Other observations

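Of the 36 apart genes that passed in the same direction in all 5 other tissues, 26 were not among the 30 largest in heart. Ech1, Oasl2, Limd1 and Lancl2 were 4 of them. In heart the other Limd1 probe set passed the same way (-0.69), while the other Lancl2 sets (-0.26 and -0.12) did not pass. Ech1 was lower in 129S2 with a difference of -0.35 in heart, -0.47 in testis, -0.42 in kidney, -0.41 in lung, -0.40 in liver and -0.39 in brain, an even difference over tissues. Oasl2 was lower with a difference of -0.76 in heart and between -0.70 and -0.40 elsewhere. Core clock genes, lower in 4 of 18 in heart and in 0 without 129S2 array 2, passed as higher in 9 and lower in 5 in kidney, where 14.5% and 16.2% of all genes did, and as higher in 7 and lower in 3 in liver, where 5.75% and 6.69% did. These counts were not tested against each other.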
